A study of Homo sapiens with 6 samples.

Results

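The genes of the cytosolic ribosomal proteins were examined in 6 poly(A)-selected RNA sequencing libraries of human cells labelled THP-1, a monocytic leukaemia line used to model macrophages. They were taken by name, as protein-coding genes called RPL or RPS with a number and an optional A, X or L, together with RPLP0, RPLP1, RPLP2 and RPSA. The rule used no measured value and found 81 of 28847 genes in the table (15632 of them protein coding), 49 of the large and 32 of the small subunit. In the RBP4 group, 3 libraries came from cells given recombinant human RBP4, the retinol carrier of plasma, and in the control group 3 libraries came from cells with the same label and no added protein named. The study's design calls the treated cells a model of M0 (unpolarized) macrophages, and names no dose, time or differentiating agent. Nothing says that the libraries came from separate cultures, so p-values measure only the spread between these libraries, which may be technical.

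Ribosomes are built from a large and a small subunit, each a scaffold of ribosomal RNA bound by many proteins that are needed in matched amounts. Messenger RNAs of ribosomal proteins are among the most abundant of a growing cell, and nearly all begin with a cytosine and a run of pyrimidines, the 5′ terminal oligopyrimidine (TOP) tract. Through this tract the mTOR kinase, with LARP1 and the eIF4E-binding proteins, sets how strongly they are translated, downstream of PI3K and AKT, the pathway named in the study's title. Sequencing of poly(A)-selected RNA reads transcript levels and not that translation.

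The start sites of the genes at either end of the range of change show whether the tract lies at the annotated start. RefSeq promoter windows (GRCh38.p14) were matched for 64 of the 81 genes, with 79 annotated starts. At 46 of the 79 starts (58.2%), and so in 46 of the 64 genes, the first base was C and at least 4 more pyrimidines followed, against 1429 of all 35116 starts in the table (4.07%). The windows below hold 30 bases before the annotated start and 25 from it, 5′ to 3′ on the gene's strand, for 4 genes of each subunit, chosen after their values were seen among genes with 1 annotated start. RPL36A and RPL17 are the lowest of these in the large subunit at any level. The other 6 are the lowest 2 and highest 2 changes of the small subunit and the highest 2 of the large among genes averaging above 1000 normalized reads. Capitals mark a run of pyrimidines that begins with C at the start. The small subunit windows lie at chr12:56041888-56041942 on the + strand (RPS26), chr3:39406690-39406744 on the + strand (RPSA), chr5:82278330-82278384 on the - strand (RPS23) and chr1:153990732-153990786 on the + strand (RPS27).
RPS26: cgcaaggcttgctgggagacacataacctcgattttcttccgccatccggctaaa
RPSA: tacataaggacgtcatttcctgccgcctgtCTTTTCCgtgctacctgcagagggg
RPS23: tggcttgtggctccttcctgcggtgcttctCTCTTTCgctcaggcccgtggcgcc
RPS27: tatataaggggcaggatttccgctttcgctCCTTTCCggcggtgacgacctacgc

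The large subunit windows lie at chrX:101390981-101391035 on the + strand (RPL36A), chr18:49492441-49492495 on the - strand (RPL17), chr19:55385902-55385956 on the + strand (RPL28) and chr19:49487578-49487632 on the + strand (RPL13A).
RPL36A: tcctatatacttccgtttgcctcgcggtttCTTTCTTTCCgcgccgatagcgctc
RPL17: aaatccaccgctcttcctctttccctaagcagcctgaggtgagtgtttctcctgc
RPL28: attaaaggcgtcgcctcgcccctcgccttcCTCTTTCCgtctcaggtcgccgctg
RPL13A: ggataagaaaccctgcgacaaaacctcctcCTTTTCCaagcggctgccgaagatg

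RPS26 and RPL17, at the low end, have no capitals, whereas RPSA and RPL36A, also low, have runs of 7 and 10 pyrimidines. A run of pyrimidines does lie shortly after the annotated start in RPS26 and shortly before it in RPL17. RPL24 and RPL41, the lowest large subunit genes above 1000 normalized reads with 1 start, have runs of 10 and 5 and are not shown. All 4 genes at the high end have a run, of 7 bases in RPS23, RPS27 and RPL13A and 8 in RPL28. Other promoter motifs were searched on both strands of the 300 bases of each window, where they may overlap each other and the start. CCGGAAG, a core recognised by ETS factors, was in 34.2% of the 79 member windows and 10.3% of all windows. AAGATGGC, the core of YY1 sites, was in 7.59% of member windows and 2.89% of all. TATAAA was in 7.59% of member windows and 11.5% of all. These matches describe letters only.

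Recovered read totals were 15994483, 16420517 and 16278627 in RBP4 libraries 1 to 3 and 15672343, 16149118 and 15202000 in control libraries 1 to 3. A count of 0 then allows up to 3 reads, or 0.183 to 0.197 CPM (a gene's reads as a share of the library, scaled to a common total), for counting error only. The cells' labelled type was checked against its markers. Of 11 monocyte and macrophage markers in the table, 4 to 6 reached 10 CPM in a library, and the list summed to 232 to 244 CPM in RBP4 libraries and 226 to 232 CPM in control libraries. CD14 was at 0 in every RBP4 library and averaged 1.39 ± 0.647 normalized reads in control libraries (SD, n = 3). All 14 erythroid markers, GATA1, KLF1 and the gamma globin genes among them, reached 10 CPM in every library and summed to 2315 to 2385 CPM with RBP4 and 2545 to 2556 CPM in control, which goes against the monocytic label. Mitochondrially encoded genes held 7.58% to 7.69% of reads with RBP4 and 5.90% to 6.10% in control.

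Most ribosomal protein transcripts were slightly lower with RBP4 on the authors' normalized scale (reads divided by a size factor per library). Of 80 genes with at least 10 normalized reads in at least 3 libraries, 46 fell and 0 rose (limma on log2(value + 1), Benjamini-Hochberg adjusted p under 0.05 over 15676 genes), and 34 did not pass. Over all genes tested, 26.1% fell and 24.5% rose. The median log2 fold change was -0.08 for the 80 genes and -0.0021 for all genes tested, and 71 of the 80 lay below 0. The 3 RBP4 values were all below the 3 control values in 41 of the 80 genes, against 28.9% of all genes tested, and all above in 1, RPL3L, against 27.3%. At an unadjusted p under 0.05 the count was 50, all of them lower. edgeR on recovered reads gave 40 lowered and 1 raised (RPS27), against 24.6% and 25.3% of all genes. DESeq2 gave 38 lowered and 0 raised, against 21.5% and 20% of all genes. The authors' deposited table had 39 of the 81 genes lowered and 0 raised at an adjusted p under 0.05 (11.1% and 9.48% of all its genes), and all 39 were also lowered here.

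**Figure D1:**
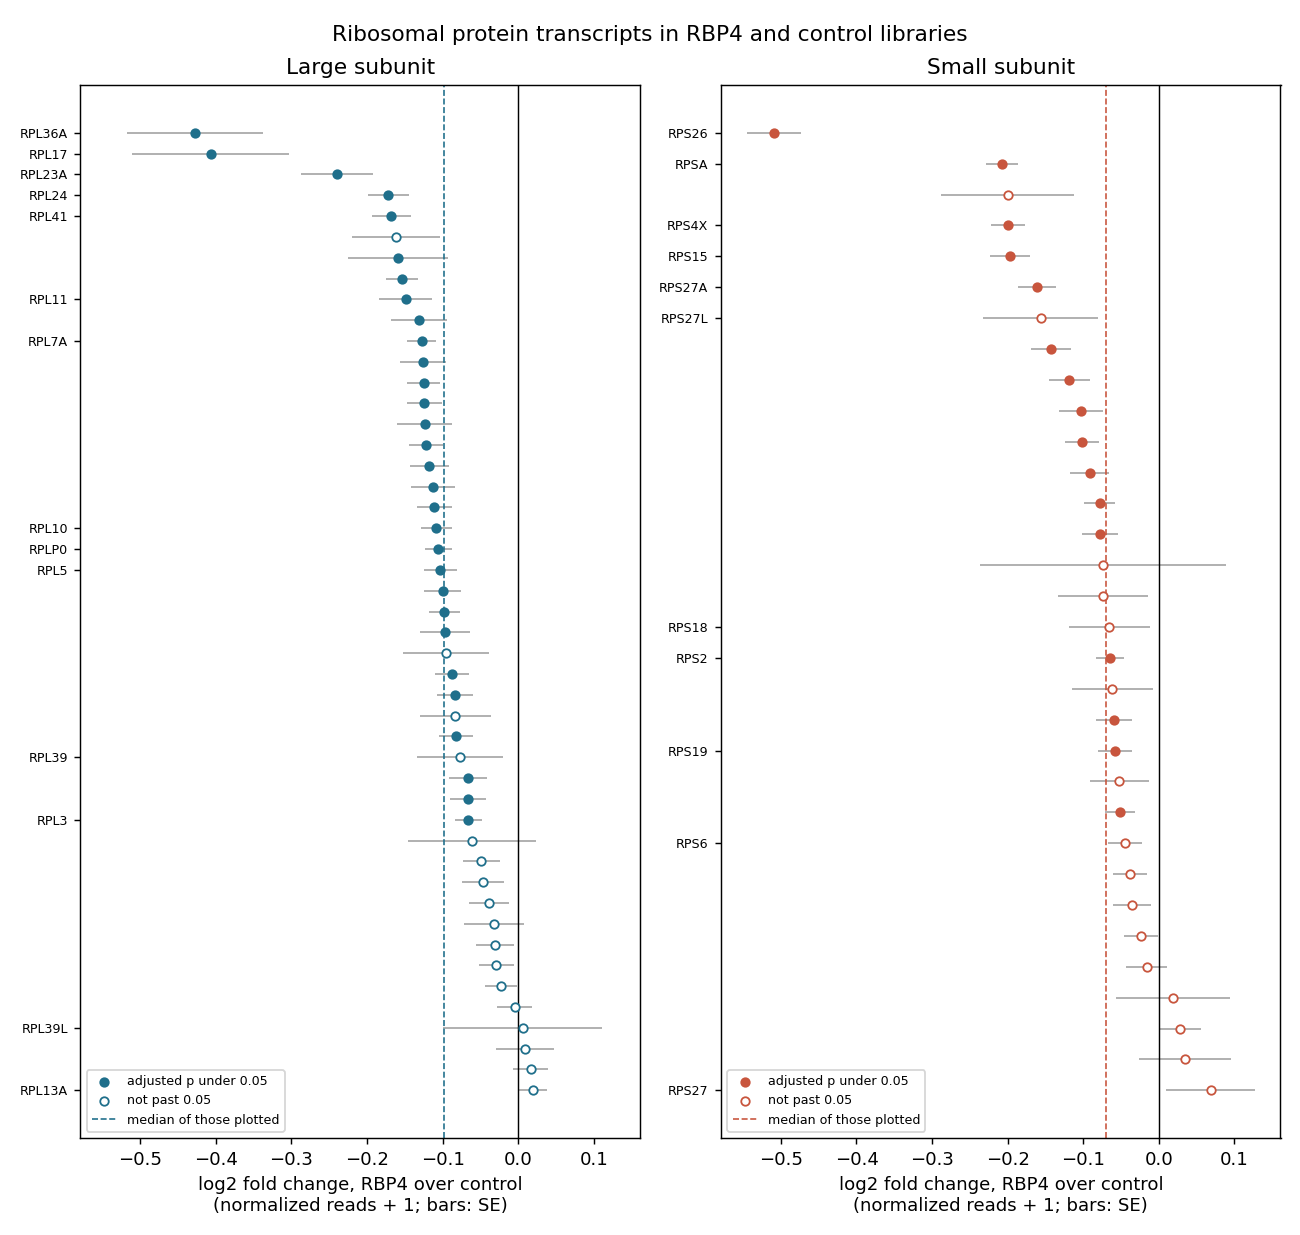
Log2 fold change (RBP4 over control, normalized reads + 1) of each tested ribosomal protein gene, large subunit on the left and small on the right, with bars for the standard error and filled points for adjusted p under 0.05. RPL3L, at 0.71 with a wide error, is left out, and labels are given for genes chosen by the naming rule. RPS26, RPL36A and RPL17 stand apart on the left, and most other points sit between -0.25 and 0.

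These counts depended on the scaling. Abundant genes in general were lower: of 386 other protein-coding genes averaging at least 5000 normalized reads, a level chosen after the values were seen, 279 fell (72.3%) and 68 rose (17.6%), with a median log2 fold change of -0.19. Among the 65 ribosomal protein genes above the same level, 40 fell and 0 rose, with a median of -0.08. With total reads 13 of these 65 were lowered and 4 raised, against 60.9% and 21.5% of the 386 others. Without mitochondrial reads 8 were lowered and 13 raised, against 56.7% and 24.9% of the others. Scaling each library to its total reads moved the median of all genes by 0.07 on the log2 scale. Then 16 ribosomal protein genes were lowered and 4 were raised (RPL13A, RPL28, RPL32 and RPS28), against 19.1% and 30.8% of all genes. Scaling to reads without mitochondrial genes moved it by 0.09, and then 11 were lowered and 13 raised, against 16.6% and 33.7%. The part of the mitochondrial share in these counts was not tested beyond that rescaling. In bulk libraries fewer cells of a kind and less RNA per cell cannot be told apart.

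As a share of all reads the family differed by less than the spread of the libraries. It took 6.69%, 6.70% and 6.93% of reads in RBP4 libraries 1 to 3, and 6.86%, 6.89% and 6.77% in control libraries 1 to 3. These shares overlap, and the difference of the means, -0.07 percentage points, is below the replicate SD of 0.106 points. With 1 library left out it ranged from -0.148 (without RBP4 library 3) to -0.0284 (without RBP4 library 1). On the normalized scale the sums were 1033760, 1038300 and 1075430 in RBP4 libraries and 1113200, 1119520 and 1101480 in control libraries, which do not overlap.

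**Figure D2:**
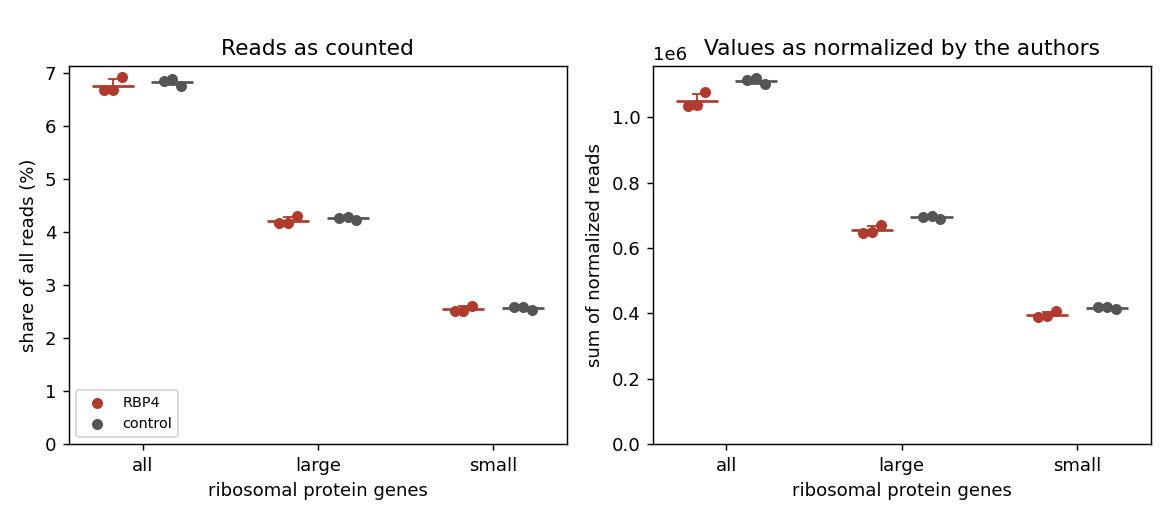
Share of all reads in percent (left) and sum of normalized reads (right) for all, large subunit and small subunit genes, with a point per library, a line for the group mean and a bar for the SD (n = 3), RBP4 left of control. The shares overlap between the groups and the normalized sums do not.

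Both subunits held lowered genes and no raised gene on the authors' scale. Of 48 tested large subunit genes 30 fell and 0 rose, with a median log2 fold change of -0.10. Of 32 small subunit genes 16 fell and 0 rose, with a median of -0.07. That is 62.5% of the large and 50% of the small subunit lowered, against 26.1% lowered and 24.5% raised over all genes. Scaled to total reads, the counts were 10 lowered and 3 raised for the large subunit (median -0.03) and 6 lowered and 1 raised for the small (median -0.0011). The lowered shares, 20.8% and 18.8%, were near that of all genes, with 19.1% lowered and 30.8% raised. Scaled without mitochondrial reads, the counts were 6 lowered and 7 raised for the large subunit (median -0.0031) and 5 lowered and 6 raised for the small (median 0.02). Here 12.5% and 15.6% were lowered, against 16.6% lowered and 33.7% raised over all genes. The ratio of large to small subunit reads was 1.66, 1.66 and 1.65 in RBP4 libraries 1 to 3 and 1.65, 1.66 and 1.67 in control libraries 1 to 3. The ratios overlap, so the balance of the subunits did not differ beyond the spread of the libraries.

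**Figure D3:**
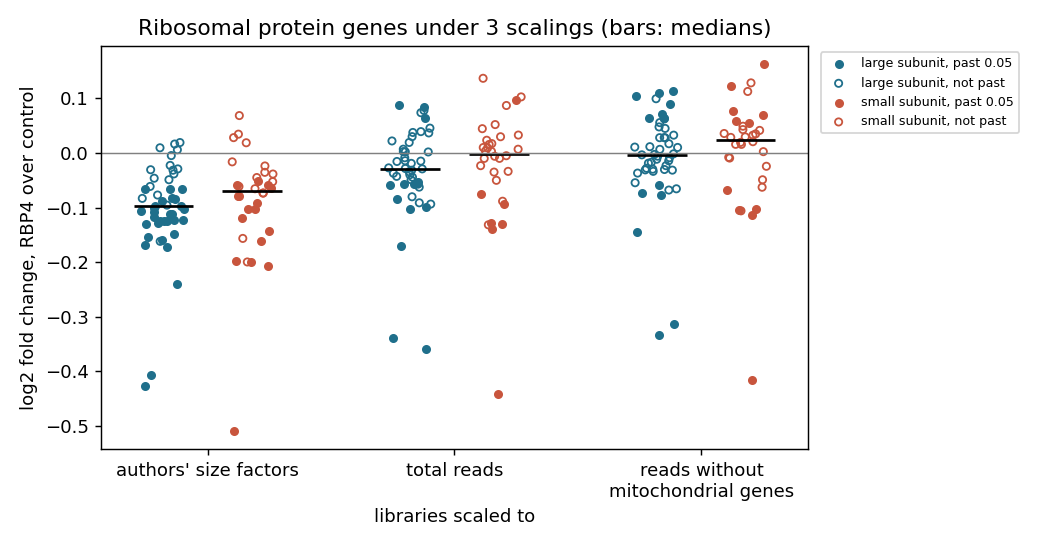
Log2 fold change (RBP4 over control) of ribosomal protein genes when libraries are scaled to the authors' size factors, to total reads or to reads without mitochondrial genes, with filled points for adjusted p under 0.05 and bars for subunit medians of the points drawn (RPL3L left out). The cloud moves up towards 0 from left to right, while RPS26, RPL36A and RPL17 stay apart.

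A total of 11 genes were lowered under each of 4 scalings, and also under each of the 18 settings tried: RPS26, RPSA, RPS4X, RPS15 and RPS27A of the small subunit, and RPL36A, RPL17, RPL23A, RPL24, RPL41 and RPL6 of the large. The same 11 were those lowered without mitochondrial reads, 13.75% of the 80, against 16.6% of all genes in that setting. The share of all genes lowered under every scaling or setting was not counted. The 11 genes are described first, small subunit before large.

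RPS26 (ENSG00000197728, chr12:56041351-56044697, + strand) was the most lowered of the 80. Its protein sits where the messenger RNA leaves the small subunit, and the gene is one of those mutated in Diamond-Blackfan anaemia, an inherited failure of red cell production. It had 2441, 2358 and 2311 normalized reads in RBP4 libraries 1 to 3, against 3446, 3536 and 3148 in control libraries 1 to 3. The groups are wide apart, with every RBP4 library below every control library. The means were 2370 ± 65.7 with RBP4 and 3377 ± 203 in control (SD, n = 3 each), 29.8% lower, and limma gave a log2 fold change of -0.51 with SE 0.0362 (adjusted p = 1.22e-18). Scaled to total reads it was -0.44, and without mitochondrial reads -0.42, both past the threshold. The authors' deposited table gives -0.51. TSR2, the chaperone that delivers this protein to the ribosome, had 457, 464 and 555 normalized reads with RBP4, against 591, 574 and 571 in control (log2 fold change -0.24, adjusted p = 0.00218), but was not past the threshold without mitochondrial reads.

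RPSA (ENSG00000168028, chr3:39406689-39412542, + strand), which encodes a small subunit protein also known as the laminin receptor, had 19905, 20397 and 19448 normalized reads in RBP4 libraries 1 to 3, against 23193, 22553 and 23228 in control libraries 1 to 3. The groups do not overlap, and the log2 change was -0.21 (SE 0.0212, adjusted p = 3.73e-13). RPS4X (ENSG00000198034, chrX:72255679-72277300, - strand), a protein of the subunit's body, had 14875, 14294 and 15215 normalized reads with RBP4, against 16947, 17008 and 16979 in control. Its control libraries had an SD of 30.2 normalized reads and all lie above the RBP4 libraries, and the log2 change was -0.20 (SE 0.0226, adjusted p = 1.53e-11).

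RPS15 (ENSG00000115268, chr19:1438358-1440494, + strand), a protein of the head of the subunit, had 7109, 7570 and 7524 normalized reads with RBP4, against 8643, 8465 and 8338 in control. No RBP4 library reached a control library, and the log2 change was -0.20 (SE 0.0267, adjusted p = 3.46e-09). RPS27A (ENSG00000143947, chr2:55231903-55235853, + strand) encodes ubiquitin fused to a ribosomal protein. It had 11470, 10875 and 11707 normalized reads with RBP4, against 12442, 12691 and 12928 in control, again without overlap (log2 fold change -0.16, SE 0.0247, adjusted p = 1.12e-07).

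In the large subunit the lowest changes belonged to RPL36A and RPL17, which also have some of its lowest levels per gene length. RPL36A (ENSG00000241343, chrX:101390824-101396154, + strand), a protein near the site where spent transfer RNA leaves, had 235, 229 and 214 normalized reads with RBP4, against 286, 319 and 308 in control. RPL17 (ENSG00000265681, chr18:49488453-49492523, - strand), which lines the tunnel through which the new protein leaves, had 167, 165 and 165 normalized reads with RBP4, against 227, 210 and 224 in control. Neither gene's groups overlap, and the log2 fold changes were -0.43 for RPL36A (SE 0.0902, adjusted p = 5.33e-05) and -0.41 for RPL17 (SE 0.104, adjusted p = 0.000766). Of the coding bases of RPL17, 100% also belong to RPL17-C18orf32, an annotated readthrough gene listed at 0 in all libraries but control library 1 (2.07 normalized reads). Of those of RPL36A, 78.2% also belong to RPL36A-HNRNPH2, which was not analysed here. No source used here says how reads of shared sequence were counted, so levels of both genes are uncertain.

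RPL23A (ENSG00000198242, chr17:28719393-28724359, + strand), the docking protein at the tunnel's mouth, had 4838, 5038 and 5555 normalized reads with RBP4, against 6220, 6194 and 5782 in control. RBP4 library 3 comes close to control library 3 without reaching it, and the log2 change was -0.24 (SE 0.0476, adjusted p = 0.00136). RPL24 (ENSG00000114391, chr3:101681091-101686782, - strand), which helps to bridge the subunits, had 6632, 6349 and 6642 normalized reads with RBP4, against 7360, 7540 and 7203 in control, with no overlap (log2 fold change -0.17, SE 0.0272, adjusted p = 2.05e-07).

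RPL41 (ENSG00000229117, chr12:56116586-56117943, + strand) encodes the shortest peptide of the ribosome, from 75 coding bases. It had 11736, 11819 and 12643 normalized reads with RBP4, against 13899, 13660 and 13095 in control. RBP4 library 3 is again the highest of its group, still below every control library (log2 fold change -0.17, SE 0.0257, adjusted p = 3.29e-07). RPL6 (ENSG00000089009, chr12:112405190-112418838, - strand), outside the rule for named genes and given because it belongs to the 11, had 19467, 19001 and 19830 normalized reads with RBP4, against 21517, 21675 and 21632 in control (log2 fold change -0.15, SE 0.0210, adjusted p = 4.76e-09).

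**Figure D4:**
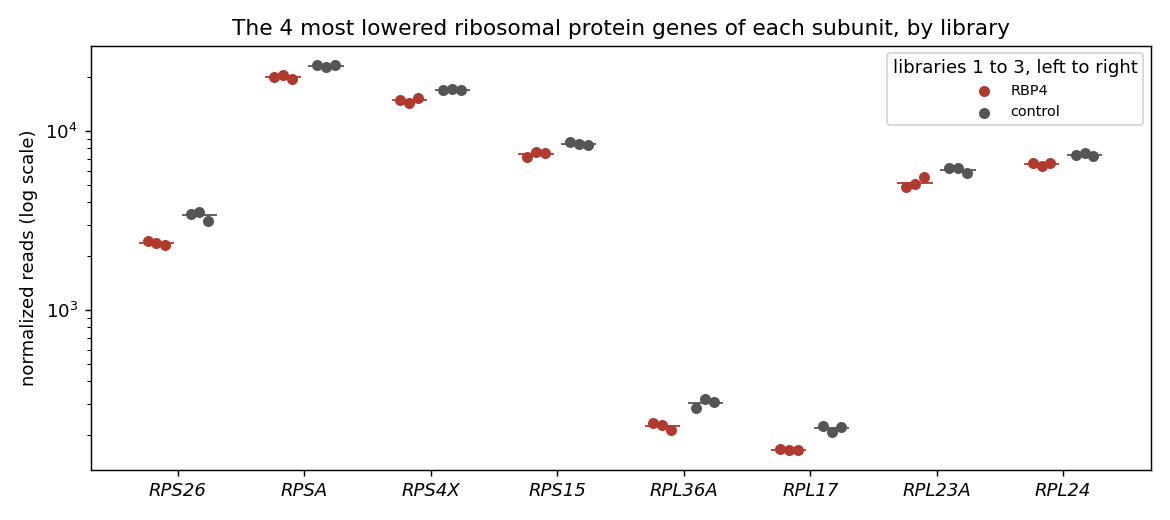
Normalized reads (log axis) of the 4 most lowered genes of each subunit past the threshold, a point per library in order 1 to 3 from left to right, RBP4 left of control, with a line for each group mean. In all 8 genes every RBP4 point lies below every control point, and the gap is widest in RPS26, RPL36A and RPL17.

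By place in the ribosome, the stalk that recruits translation factors held 4 tested genes, of which 2 fell, against 26.1% of all genes. RPLP0, the stalk's base, had 46850, 48125 and 46141 normalized reads with RBP4, against 50277, 50695 and 50825 in control, with no overlap (log2 fold change -0.11, SE 0.0179, adjusted p = 8.99e-07). RPL12, which binds beside it, had a log2 fold change of -0.09, while RPLP1 (-0.05) and RPLP2 (-0.03), the stalk's arms, did not pass. Scaled to total reads, none of the 4 passed, and without mitochondrial reads RPLP2 was raised.

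RPL5 and RPL11 travel with 5S ribosomal RNA and can bind and inhibit MDM2, the p53 ubiquitin ligase. RPL5 had 21275, 20573 and 22120 normalized reads with RBP4, against 22440, 23130 and 23094 in control, and RPL11 had 13460, 13474 and 14962 with RBP4, against 15741, 15175 and 15471 in control. Both fell, without overlap between groups, with log2 fold changes of -0.10 (RPL5, adjusted p = 7.49e-05) and -0.15 (RPL11, adjusted p = 0.0030). Neither passed when scaled to total reads (-0.03 for RPL5 and -0.08 for RPL11).

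Around the exit tunnel 7 of 10 genes fell and 0 rose (median log2 fold change -0.11), among them RPL4 (-0.10), RPL19 (-0.13) and RPL31 (-0.07), and RPL35 (-0.16), RPL38 (-0.06) and RPL39 (-0.08) did not pass. With total reads 3 of the 10 fell and 0 rose, and without mitochondrial reads 2 fell and 0 rose. In the head of the small subunit 6 of 14 fell and 0 rose (median -0.06), with 2 lowered and 1 raised for total reads and 2 lowered and 3 raised without mitochondrial reads. In its body 10 of 17 fell and 0 rose (median -0.08), with 4 lowered and 0 raised for total reads and 3 of each without mitochondrial reads. Beside these counts, 26.1% of all genes fell and 24.5% rose on the authors' scale. The shares over all genes were 19.1% and 30.8% with total reads, and 16.6% and 33.7% without mitochondrial reads.

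Of 18 genes mutated in Diamond-Blackfan anaemia, 11 fell and 0 rose on the authors' scale (61.1% lowered, median log2 fold change -0.10), against 57.5% lowered in the whole family and 26.1% of all genes. Scaled to total reads, 1 was lowered, RPS26, and 1 raised, RPS28, and without mitochondrial reads the counts were 1 and 2. The shares over all genes were 19.1% lowered and 30.8% raised with total reads, and 16.6% and 33.7% without mitochondrial reads. RPS19, the gene most often mutated in that disease, had 15214, 16154 and 16143 normalized reads with RBP4, against 16633, 16300 and 16519 in control. Its groups are separate but close, at a log2 change of -0.06 with SE 0.0228 (adjusted p = 0.0279), and it missed the threshold without RBP4 library 1 (-0.03, adjusted p = 0.374) and without control library 1 or 3 (adjusted p = 0.0781 and 0.0546). It also missed the threshold with edgeR (adjusted p = 0.147), with DESeq2 (adjusted p = 0.118) and, with an adjusted p of 0.0626, in the authors' deposited table. Scaled to total reads its sign turned (0.01).

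RPS6, the small subunit protein phosphorylated by the S6 kinases downstream of mTOR, did not pass. It had 16524, 15895 and 16896 normalized reads with RBP4, against 16854, 16935 and 17072 in control. The groups overlap (log2 fold change -0.04, unadjusted 95% interval -0.09 to -0.0011, adjusted p = 0.0876). Without RBP4 library 3 it was lowered (-0.07, adjusted p = 0.0209), and scaled to total reads its sign turned (0.02).

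Of the most abundant genes per kilobase of the deposited gene length, some were lowered and some did not pass. On that scale, as means of the 6 libraries, RPL13A had 18549 normalized reads per kilobase, RPL7A 12908 and RPLP0 12202 in the large subunit, and RPS2 had 16528 and RPS18 16136 in the small. RPL13A, which in interferon-treated monocytes leaves the ribosome to silence inflammatory transcripts, had 43761, 43885 and 45050 normalized reads with RBP4, against 43842, 44474 and 42640 in control. The groups overlap, and its log2 fold change was 0.02 (95% interval -0.02 to 0.06, adjusted p = 0.404), but it was raised when scaled to total reads (0.09) and without mitochondrial reads (0.11).

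RPL7A had 27605, 27256 and 28119 normalized reads with RBP4, against 30091, 30703 and 29864 in control, without overlap (log2 fold change -0.13, adjusted p = 9.83e-08), and it stayed lowered with total reads (-0.06) but not without mitochondrial reads (-0.03). RPS2 fell by 0.06 on the log2 scale (adjusted p = 0.00308), with 38195, 39683 and 39090 normalized reads with RBP4, against 41445, 41009 and 39869 in control, and missed the threshold without RBP4 library 1 (-0.05, adjusted p = 0.0659). RPS18 (-0.07) overlapped between groups and did not pass with all libraries, but passed without RBP4 library 3 (-0.10) and without control library 3 (-0.11). With total reads the signs of RPS2 and RPS18 turned (0.0037 and 0.0029).

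The other anchors and parent genes were close to these. RPL3, near the centre that joins amino acids, had 43754, 44252 and 44830 normalized reads with RBP4, against 46780, 46340 and 45908 in control, with no overlap (log2 fold change -0.07, adjusted p = 0.00145), and its sign turned with total reads (0.0025). RPL10 (-0.11, adjusted p = 6.04e-06) was past the threshold neither with total reads (-0.04) nor without mitochondrial reads (-0.01). RPL39 had 5595, 5665 and 6523 normalized reads with RBP4, against 6151, 6291 and 6273 in control. RBP4 library 3 alone is above the control libraries, and without it RPL39 was lowered (-0.15, adjusted p = 4.64e-05).

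RPS27 had the highest fold change of the small subunit, with 8356, 8383 and 9608 normalized reads with RBP4, against 8385, 8524 and 8164 in control. RBP4 library 3 sets the difference, the groups overlap, and it did not pass (0.07, SE 0.0587, adjusted p = 0.387). edgeR called it raised (0.08, adjusted p = 0.0347), as did limma without mitochondrial reads (0.16, adjusted p = 0.0485).

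The 4 paralogs are near copies of parent genes in the family, and none of the 3 tested was called. Per kilobase of gene length, as means of the 6 libraries, RPL39L had 177 normalized reads and RPL39 2841, and RPS27L had 44.0 and RPS27 8280. Those lengths differ within a pair, at 1060 and 2141 bases for RPL39L and RPL39, and 9127 and 1035 for RPS27L and RPS27. Per kilobase of coding sequence RPL39L had 1225 and RPL39 39758, and RPS27L had 1595 and RPS27 34008. Which paralog lies further below its parent depends on the length used. RPL3L, the muscle form of RPL3, had 16.4, 16.1 and 13.4 normalized reads with RBP4, against 9.31, 10.1 and 7.50 in control. Its groups do not overlap, but a log2 change of 0.71 with SE 0.389 was not past the threshold (adjusted p = 0.121). RPL10L, known from testis, was below the filter, with 0.967, 1.89 and 2.86 normalized reads with RBP4, against 4.14, 2.01 and 3.21 in control. RPL39L had 190, 181 and 192 normalized reads with RBP4, against 189, 178 and 194 in control, and its groups overlap (log2 fold change 0.01, 95% interval -0.20 to 0.21). RPS27L, a p53 target, had 372, 378 and 388 normalized reads with RBP4, against 439, 460 and 375 in control, with overlap (-0.16, adjusted p = 0.0775), and was lowered without control library 3 (-0.24, adjusted p = 0.00851).

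RBP4 libraries 1 and 3 differed from each other in these genes. Among the 72 genes averaging above 1000 normalized reads, RBP4 library 3 was above the mean of the other RBP4 libraries in 61, with a median log2 difference of 0.06. By the same measure, in which a high library lowers its mates, RBP4 library 1 was above in 12, RBP4 library 2 in 19 and the control libraries in 25 to 49. The difference of RBP4 library 3 was larger for genes with short coding sequences: the median was 0.10 in the 36 with 75 to 468 coding bases and 0.04 in the 36 with 471 to 1281 (Spearman's rho with coding length -0.43). RBP4 library 1 had the opposite trend, with medians of -0.07 in the shorter and -0.02 in the longer genes (rho 0.54). Among the shorter genes 15 of 36 were lowered, and 24 without RBP4 library 3. Among the longer 28 of 36 were lowered, and 30 without it. With all libraries 26.1% of all genes were lowered. Across all 72, Spearman's rho between log2 fold change and coding length was -0.25, and -0.05 without that library, as a description of genes that share libraries. Without RBP4 library 3, 57 of the 80 genes were lowered and 0 raised, against 24.5% and 21.5% of all genes. What set these libraries apart was not tested.

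**Figure D5:**
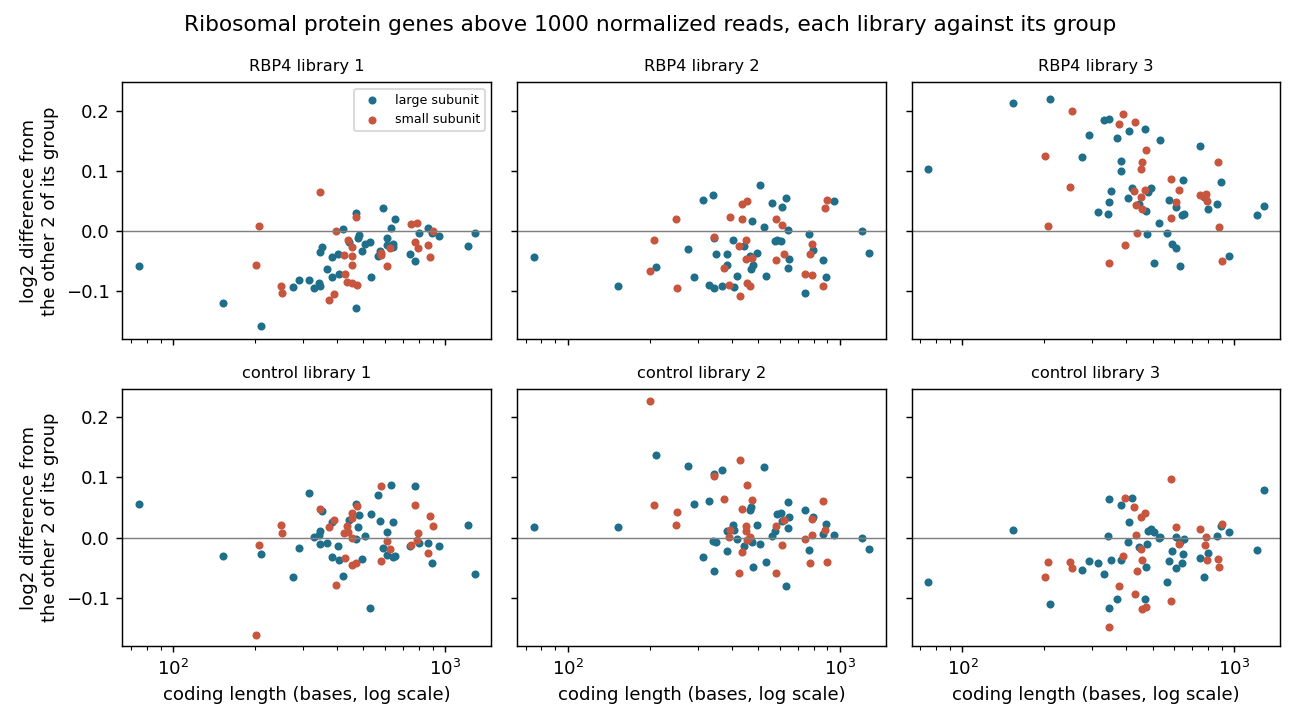
Log2 difference of each library from the mean of the other libraries of its group, against coding length in bases (log axis), for the 72 ribosomal protein genes above 1000 normalized reads, with large and small subunit genes in different colours. RBP4 library 3 lies mostly above 0, with its highest points among short genes, and RBP4 library 1 mostly below 0, with its lowest points among short genes.

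Lowered genes were found both with and without a TOP tract at the annotated start. On the authors' scale 24 of the 46 genes with a tract were lowered (median log2 fold change -0.08). Of 17 tested genes without one 13 were lowered (median -0.11), against 26.1% of all genes. The split was not counted under the other scalings. The group without a tract holds RPS26, RPL17, RPS4X and RPS15, as well as RPS28 and RPS29, which did not pass. The split rests on the annotated first base, and in the RPL17 window a run of pyrimidines ends shortly before it. In the RPS26 window such a run begins shortly after that base, so RPS26 is without a tract by this rule only. Whether these cells use the annotated starts was not tested.

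Reads may also be exchanged with other loci. Of the 81 genes 9 share coding bases with another protein-coding gene, among them RPS10 (92.1%), RPL26 (71.0%) and RPS23 (54.1%, with ATG10), and 4 of these 9 were lowered. Without them 42 of 71 tested genes were lowered and 0 raised on the authors' scale (median log2 fold change -0.08), against 26.1% and 24.5% of all genes. The table also held 349 pseudogenes named after 69 of the 81 genes, with 0.236% to 0.248% of reads in RBP4 libraries and 0.244% to 0.253% in control libraries. For 9 parents they summed to over 10% of the parent's level, highest for RPS28 (81.2%), RPS10 (57.6%) and RPL9 (25.8%). Adding their values moved a parent's log2 fold change by -0.10 (RPL17) to 0.05 (RPS10), and 46 genes were again lowered on the authors' scale. The counts without shared genes or with added pseudogenes were not made under the other scalings.

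Ribosomal proteins outside the naming rule were lower too: of 7 genes 6 fell and 0 rose (median log2 fold change -0.17), against 26.1% and 24.5% of all genes, and 5 fell when scaled to total reads or without mitochondrial reads. FAU, a ubiquitin-like protein fused to a small subunit protein, averaged 4860 ± 170 normalized reads with RBP4 and 5475 ± 94.8 in control (SD, n = 3 each, log2 fold change -0.17). RPL36AL, a near copy of RPL36A, had a log2 fold change of -0.28 and RPL7L1, a paralog of RPL7, of -0.16.

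Of 15 other TOP messenger RNAs 8 fell and 1 rose (median log2 fold change -0.09), with 5 lowered and 2 raised for total reads and 4 of each without mitochondrial reads (EEF1G was not analysed here). On the authors' scale that is 53.3% lowered, against 26.1% of all genes and 72.3% of the abundant protein-coding genes described above. With total reads 19.1% of all genes fell and 30.8% rose, and without mitochondrial reads 16.6% and 33.7%. BTF3, part of a complex that meets the new protein at the tunnel, had 10618, 10732 and 11061 normalized reads with RBP4, against 12613, 13049 and 13056 in control (log2 fold change -0.26, no overlap). Its partner NACA had a log2 fold change of -0.16, HNRNPA1, an RNA-binding protein, of -0.24, and NPM1, a nucleolar protein, of -0.20. EEF1A1, which brings transfer RNA to the ribosome, fell by 0.09 on the log2 scale but did not pass with total reads. EEF2, the translocation factor, rose by 0.04 on the log2 scale (adjusted p = 0.0303), with overlapping groups.

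The 9 regulators of TOP messenger RNAs were mixed, with 4 lowered and 2 raised, against 26.1% and 24.5% of all genes. EIF4E, the cap-binding protein, averaged 1142 ± 39.5 normalized reads with RBP4 and 1549 ± 45.0 in control (log2 fold change -0.44, adjusted p = 2.19e-13). MTOR (-0.20), RPS6KB1 (-0.21) and RPS6KB2 (-0.20) also fell, the last not without mitochondrial reads. RPTOR, the mTOR partner, averaged 1306 ± 79.1 with RBP4 and 1150 ± 31.7 in control (0.18, adjusted p = 0.000744), and EIF4EBP1, an inhibitor of EIF4E, averaged 1334 ± 18.2 with RBP4 and 1211 ± 13.1 in control (0.14, adjusted p = 0.00652). EIF4EBP2 (-0.03), LARP1 (-0.01) and LARP4 (0.04) did not pass on the authors' scale, but LARP4 was raised with total reads and, like LARP1, without mitochondrial reads.

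Of 9 dedicated chaperones of ribosomal proteins 6 fell and 0 rose (median log2 fold change -0.16), with 4 lowered and 1 raised (HEATR3) for total reads, and 3 and 1 without mitochondrial reads. Over all genes 26.1% fell and 24.5% rose on the authors' scale, 19.1% and 30.8% with total reads, and 16.6% and 33.7% without mitochondrial reads. The lowest on the authors' scale were LTV1, a small subunit assembly factor (-0.42), BCCIP, which binds RPL23 (-0.33), TSR2 (-0.24) and GRWD1, which binds RPL3 (-0.23), and all but TSR2 were also lowered without mitochondrial reads. Of 8 genes that act on stalled or colliding ribosomes 5 fell and 1 rose (median -0.20), and 4 fell and 1 rose under both other scalings, beside the same shares over all genes. GIGYF2 (-0.35), HBS1L (-0.31), ASCC3 (-0.26) and LTN1 (-0.22) fell, and ZNF598, the ubiquitin ligase that recognises collided ribosomes, rose by 0.11 on the log2 scale (adjusted p = 0.0185).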

How the data were processed

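The authors deposited 1 table. It gives, for every gene and library, the deposited signal after their normalization (gene reads divided by 1 size factor per library, from the values) and, per the file headers, group means, gene length and a comparison by the authors (log2 fold change, p-value, adjusted p-value). No source used here names the aligner, read counter or build, but all 28847 gene identifiers have the start and end of GENCODE release 29 (GRCh38). Per the labels' protocols a NEBNext Ultra RNA kit was used, which does not mark strand, so overlapping genes on opposite strands are not separated. All deposited signal values were whole multiples of a step per library within 0.01 reads, which gave the recovered reads. An automatic check of this did not accept control library 2 (step 1.01), so the main test used the deposited values. Recovered reads gave depth, shares of reads, CPM values, the subunit ratio, the chi-square of replicates, the other scalings and alternative tests.

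The main test was limma-trend with robust moderation on log2(value + 1) (R 4.3.3, limma 3.58.1) for genes at 10 or more in at least 3 libraries, two-sided, with Benjamini-Hochberg adjustment over 15676 genes and a threshold of 0.05. Fold changes on this scale understate those of low genes. Intervals are 95% intervals from the SE of the fit by a normal approximation, not adjusted for the number of genes. Alternatives were 3 other scalings, 2 filters, pseudocounts of 0.5 and 5, edgeR 4.0.16, DESeq2 1.42.0, pseudogene values added, a replicate block and each library left out. The fit was tested on simulated data. Named genes were, per subunit, the 5 most lowered and raised past the threshold, the 3 highest per gene length, genes below the filter, the paralogs with their parents, and RPS6, RPS19, RPL5, RPL11 and RPLP0, plus the 4 smallest p-values of each further list and all TOP regulators. Other genes named were chosen after their values were seen, and the values of some genes that the rule or lists hold are not reported here. The genes and lists were chosen with earlier results of these data known. Groups and numbers came from sample titles. No 2 libraries of a group matched within counting noise (chi-square per gene 1.81 to 2.19). A total of 0 columns of per-sample values were left unused.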

Additional observations from a re-analysis of the deposited data

How the results depend on the processing

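The 46 lowered genes became 16 when libraries were scaled to total reads and 11 without mitochondrial reads, and the 0 raised genes became 4 and 13. In each case the lowered genes were among the 46. edgeR raised 1. The large subunit median changed to -0.0288 with total reads and -0.0031 without mitochondrial reads, and the small subunit median to -0.0011 and 0.0246. The difference in the share of reads, -0.0701 percentage points, was 0.0549 of non-mitochondrial reads. Leaving out 1 library gave 37 (without RBP4 library 1) to 57 (without RBP4 library 3) lowered and 0 to 1 raised, large subunit medians of -0.123 to -0.0829, small subunit medians of -0.1023 to -0.0530, and share differences of -0.1484 to -0.0284. Other filters, pseudocounts, TMM, DESeq2 and added pseudogenes gave 38 to 50 lowered and 0 raised. Of all genes, 26.1% were lowered on the authors' scale, 19.1% with total reads and 16.6% without mitochondrial reads. The share was 26.1% with TMM, 21.5% with DESeq2 and 24.5% without RBP4 library 3. It was not counted for the filters, pseudocounts, added pseudogenes or other left-out libraries, so those counts cannot be set against a general shift.

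Of 441 values of named genes under alternatives, 399 kept their direction and side of the threshold, 17 were no longer past it, 11 newly passed and 14 changed sign. With total reads and without mitochondrial reads the signs turned for RPL3 (0.0025 and 0.0283), RPS18 (0.0029 and 0.0286), RPS19 (0.01 and 0.0357), RPS2 (0.0037 and 0.0295) and RPS6 (0.0234 and 0.0491), and without mitochondrial reads for RPL39 (0.017). RPL39L, near 0, ranged from -0.029 to 0.0317 with 1 library left out and turned without RBP4 library 1 (-0.0042), RBP4 library 3 (-0.0091) or control library 2 (-0.029). The cause was not tested, other than the scaling itself.

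With the replicate number as a block, 44 genes were lowered and 0 raised, and RPS19 missed the threshold (-0.0583, adjusted p = 0.0528). The share of all genes called with the block was not counted. Same-numbered libraries did not deviate together over all genes tested (correlations of 0.0037, -0.0079 and -0.017). Over the ribosomal protein genes the correlations were 0.11, -0.41 and -0.042, and differently numbered pairs ranged from -0.37 to 0.44. Such values cannot show whether same-numbered libraries shared a culture, day or batch. Depth limits RPL10L and RPL3L, which had 1 and 7 reads in their lowest library.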
